A study of Mus musculus with 54 samples.

Results

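Genes known from glutamatergic neurons of the cerebral cortex were followed across 3 brain regions, and array by array within the striatum, of mice that overexpress mutant alpha-synuclein. All probe sets annotated to a single gene whose symbol is Tbr1, Neurod6, Neurod2, Fezf2, Cux2, Rorb, Mef2c, Lmo3 or Nrn1 were taken, which gave 19 probe sets of 9 genes among 45037 probe sets and 18193 genes measured. Mef2c had 5 probe sets, Cux2, Neurod2 and Rorb had 3 each and the other genes had 1. Values are given for the brightest probe set of a gene unless another is named, and levels of different probe sets were not compared with each other. PrPmtA and PrPmtB are 2 independent transgenic lines that carry human alpha-synuclein with the A53T change found in familial Parkinson's disease, under the prion protein promoter, which is active in many neurons of the brain, and WT mice were the controls. Expression of the transgene itself was not analysed here. The 54 Affymetrix mouse arrays held RNA of cerebellum, striatum or brainstem/midbrain, with 22 arrays of WT, 17 of PrPmtA and 15 of PrPmtB. At 6 months of age (young) every line and region had 2 arrays, 1 labelled female and 1 labelled male. In old striatum there were 4 WT arrays of 20, 22, 26 and 28 months, 2 PrPmtA arrays of 26 and 28 months and 2 PrPmtB arrays of 20 and 22 months. Old brainstem/midbrain had 6 WT, 4 PrPmtA and 3 PrPmtB arrays and old cerebellum had 6, 5 and 4. In these regions the old arrays were of 20 to 28 months for WT, 21 to 28 for PrPmtA and 20 to 22 for PrPmtB. In every region, old arrays of 20 months were labelled female and male together, and those of 26 months male. Those of 21, 22 and 28 months were labelled female. At a given old age the sexes could therefore not be compared.

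The striatum lies directly beneath the cerebral cortex and the white matter that separates them. Its principal cells, the medium spiny neurons, use GABA, whereas the projection neurons of the cortex use glutamate and carry a transcription factor programme of their own. Tbr1 is a T-box factor of early-born and deep-layer cortical neurons, and Fezf2 is a zinc finger factor that specifies subcortically projecting neurons of layer V. Neurod6 and Neurod2 are basic helix-loop-helix factors of differentiating and mature cortical and hippocampal glutamatergic neurons, and Neurod2 is also made by cerebellar granule cells. Cux2 marks upper cortical layers and Rorb marks layer IV. Mef2c is a MADS-box factor of cortical neurons and also of other neurons, muscle and immune cells. Lmo3 is a LIM-only cofactor found in cortex and other forebrain areas, and Nrn1 (neuritin) is an activity-regulated protein anchored to the neuronal surface that promotes neurite growth and is made by many kinds of neurons.

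Of the 9 genes, 8 had an entry in the RefSeq table of transcription start regions (build GRCm38.p6). The 250 bases before the start of Tbr1 (chr2:61804203-61804452, plus strand) and of Neurod6 (chr6:55681264-55681513, minus strand) are shown because the levels of these genes changed together from striatal array to striatal array. The Neurod6 stretch lies outside the annotated gene, whereas the Tbr1 stretch lies before the listed start but inside the annotated span of the gene (chr2:61802863-61814114). Capitals mark the motif CANNTG, the E-box that basic helix-loop-helix factors such as Neurod6 and Neurod2 bind, which reads the same on both strands.
Tbr1: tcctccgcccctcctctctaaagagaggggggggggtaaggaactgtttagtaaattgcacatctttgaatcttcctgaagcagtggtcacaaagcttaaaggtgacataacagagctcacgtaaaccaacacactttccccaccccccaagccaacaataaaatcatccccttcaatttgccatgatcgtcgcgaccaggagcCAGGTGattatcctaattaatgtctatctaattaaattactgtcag
Neurod6: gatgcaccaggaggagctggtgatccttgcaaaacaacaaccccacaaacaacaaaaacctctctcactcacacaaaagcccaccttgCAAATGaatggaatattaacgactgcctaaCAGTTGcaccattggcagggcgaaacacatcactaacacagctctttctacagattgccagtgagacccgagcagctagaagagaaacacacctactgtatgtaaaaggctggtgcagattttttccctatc
The Tbr1 region held 1 such motif and the Neurod6 region held 2. The motif is common: it was present in 66.2% of all 32851 start regions of this length, and in 9 of the 12 start regions listed for the 9 genes.

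The labelled tissue was checked first. In all 14 striatal arrays the 14 measured marker genes of medium spiny neurons had a mean log2 signal between 10.28 and 10.89, against a median of 6.20 over the brainstem/midbrain arrays and 5.01 over the cerebellar arrays. The median signal of an array was 3.46 to 3.63 at 6 months and 3.38 to 3.48 at old age. Young arrays were all of the first of 3 array series, whereas old arrays were never of that series, and the effects of series and of age cannot be told apart. In striatum, the 22-month WT and the 22-month PrPmtB arrays came from the second series and the other 6 old arrays from the third. The 22-month PrPmtB array had the largest difference between 3' and 5' probe sets of beta-actin (2.22, against 1.34 to 1.77 in the other 13 arrays), a measure of RNA integrity. The 28-month PrPmtA array is labelled female but had a signal of 7.02 for the Y-linked gene Eif2s3y, together with 10.01 for Xist, whereas other arrays labelled female had at most 3.23 for Eif2s3y. The differences of PrPmtA striatum that are described and use this array are given with and without it. Nothing in the labels says which arrays share an animal, so the tests measure the spread between these arrays.

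Comparison of the regions asked where the genes are expressed. Tbr1, Neurod6, Fezf2, Mef2c and Lmo3 were higher in striatum than in both other regions, Nrn1 and Cux2 were lower in striatum than in both, Neurod2 was highest in cerebellum and Rorb was highest in brainstem/midbrain. Averaged over lines and ages, Tbr1 was higher in striatum by 3.65 on the log2 scale (SE 0.31, limma adjusted p = 1.29e-12) than in brainstem/midbrain and by 3.56 (SE 0.31) than in cerebellum. The differences were 3.00 (SE 0.38) and 3.29 (SE 0.37) for Neurod6, 1.98 (SE 0.16) and 1.97 (SE 0.16) for Fezf2, and 2.50 (SE 0.18) and 2.77 (SE 0.18) for Mef2c, in the same order. Lmo3 had a graded pattern, 3.03 (SE 0.13) higher in striatum than in brainstem/midbrain and 6.08 (SE 0.13) higher than in cerebellum. One estimate of the spread was used for all regions. The SD of Tbr1 within groups, however, was 1.79 in striatum, 0.16 in brainstem/midbrain and 0.12 in cerebellum. The SEs and p of Tbr1, and of other genes that varied more in striatum, may therefore be too small.

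The remaining genes did not follow a forebrain pattern. Nrn1 was lower in striatum than in brainstem/midbrain (-2.30, SE 0.29) and cerebellum (-2.28, SE 0.29). Cux2 differed in the same direction by -1.05 (SE 0.17) and -0.67 (SE 0.17). The medians of its next brightest probe set were alike (5.73, 5.73 and 5.75 in striatum, brainstem/midbrain and cerebellum). Those of its dimmest probe set were 4.89, 5.16 and 5.17, in the same order. Neurod2 was 0.75 (SE 0.24) higher in striatum than in brainstem/midbrain but differed by -3.69 (SE 0.23) from cerebellum. Rorb differed by -0.64 (SE 0.15) from brainstem/midbrain and by 1.32 (SE 0.15) from cerebellum. Over all 19 probe sets, 12 were called higher and 5 lower in striatum than in brainstem/midbrain, where 42% of all probe sets were called higher and 21.2% lower. Against cerebellum, 11 were called higher and 5 lower, where the shares over all probe sets were 41.1% and 23.1%. All 5 probe sets of Mef2c were called higher in both comparisons.

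**Figure D1:**
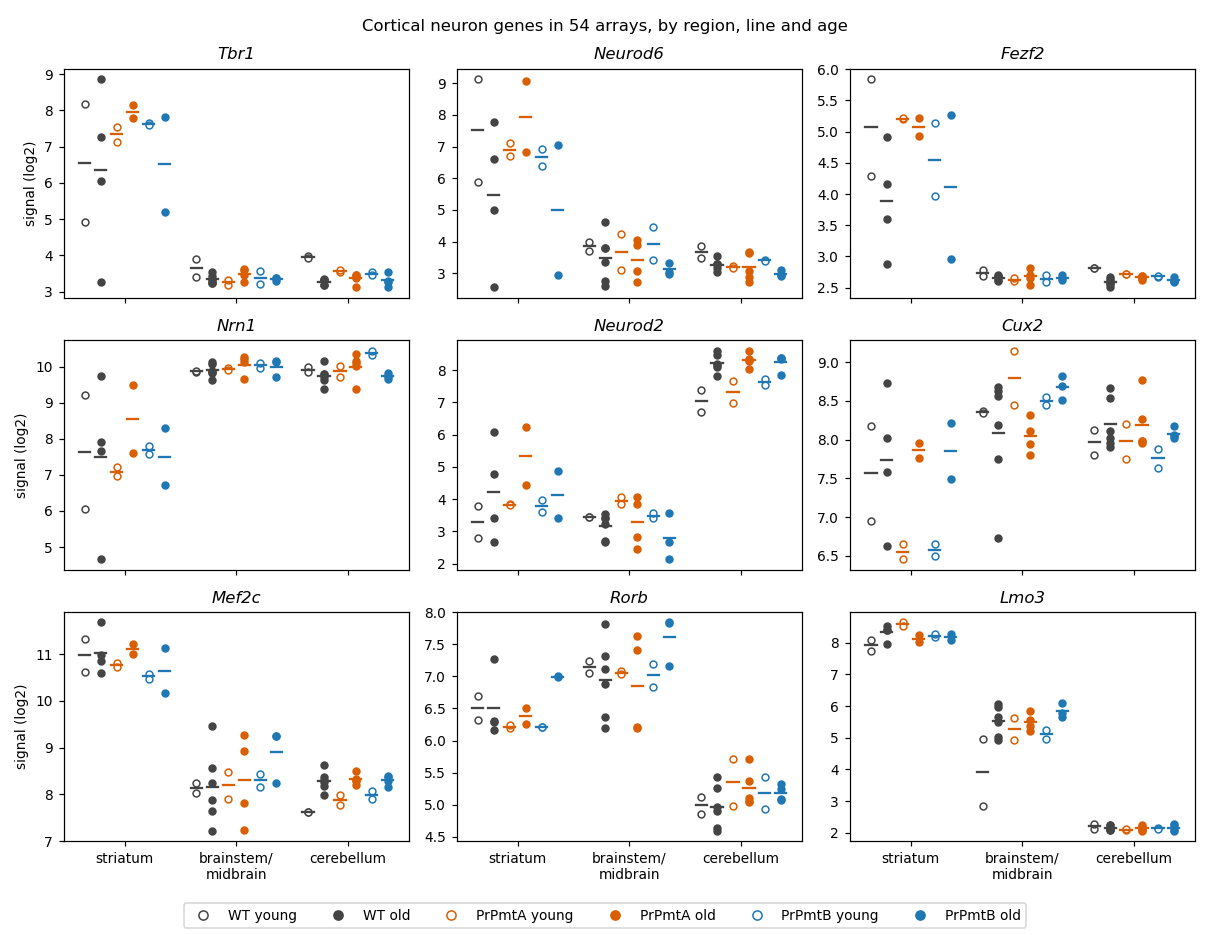
Log2 signal of the brightest probe set of each gene in all 54 arrays, by region, line and age (open circles, 6 months; filled circles, 20 to 28 months; horizontal bars, group means). Tbr1, Neurod6 and Fezf2 lay near their lowest values in brainstem/midbrain and cerebellum and spread over a wide range in striatum, whereas Nrn1 was high and narrow outside striatum.

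Outside striatum, Tbr1, Fezf2 and Neurod6 were low. Tbr1 ranged from 3.19 to 3.89 over the 19 brainstem/midbrain arrays and from 3.12 to 3.98 over the 21 cerebellar arrays. Fezf2 ranged from 2.54 to 2.82 and from 2.50 to 2.82, and Neurod6 from 2.60 to 4.63 and from 2.73 to 3.88. Nrn1 was high in every array, between 9.64 and 10.25 in brainstem/midbrain and between 9.38 and 10.44 in cerebellum. When the 18 groups were ordered by their means, the ranges of neighbouring groups overlapped in all 17 pairs for Neurod6, in 15 of 17 for Fezf2, Nrn1, Cux2, Mef2c and Rorb, in 14 for Lmo3 and in 13 for Tbr1 and Neurod2. The highest group mean was that of old PrPmtA striatum for Tbr1 (7.97 ± 0.26, SD, n = 2), Neurod6 (7.94 ± 1.60, SD, n = 2) and Mef2c (11.11 ± 0.16, SD, n = 2), and that of young PrPmtA striatum for Fezf2 (5.21 ± 0.01, SD, n = 2) and Lmo3 (8.58 ± 0.09, SD, n = 2).

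Within striatum, replicate arrays of the same group differed widely. Tbr1 in the 2 young WT arrays was 4.91 (female) and 8.17 (male), in young PrPmtA 7.54 and 7.13, and in young PrPmtB 7.65 and 7.60. In old WT striatum Tbr1 was 7.27 at 20 months, 3.26 at 22, 8.87 at 26 and 6.05 at 28 months. In old PrPmtA it was 8.15 at 26 and 7.78 at 28 months, and in old PrPmtB 7.82 at 20 and 5.20 at 22 months. The 22-month WT array and the young female WT array were the lowest, and the old WT group alone spanned the whole range of all 14 striatal arrays. The 22-month WT value lay within the range of the brainstem/midbrain and cerebellar arrays, whereas the other 13 striatal arrays were above every array of those regions. In bulk tissue, fewer cells of a type and less RNA per cell cannot be told apart.

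Neurod6 was 5.89 (female) and 9.13 (male) in young WT striatum, 7.12 and 6.70 in young PrPmtA, and 6.40 and 6.94 in young PrPmtB. In old WT it was 6.61, 2.56, 7.76 and 5.01 at 20, 22, 26 and 28 months, in old PrPmtA 9.07 at 26 and 6.82 at 28 months, and in old PrPmtB 7.06 at 20 and 2.93 at 22 months. Both 22-month arrays were the lowest, and the WT one was below every array of the other regions. The young male WT array and the 26-month PrPmtA array were the highest.

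Nrn1 was 6.04 (female) and 9.20 (male) in young WT striatum, 7.21 and 6.98 in young PrPmtA, and 7.79 and 7.58 in young PrPmtB. In old WT it was 7.91, 4.67, 9.74 and 7.66 at 20, 22, 26 and 28 months, in old PrPmtA 9.48 at 26 and 7.61 at 28 months, and in old PrPmtB 8.29 at 20 and 6.72 at 22 months. The same WT pair of young arrays was split and the 22-month WT array was again the lowest. The highest striatal arrays of Nrn1 reached the level of cerebellum, where the lowest array was 9.38.

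Fezf2 was 4.29 and 5.84 in young WT (female and male), 5.20 and 5.22 in young PrPmtA, and 3.97 and 5.13 in young PrPmtB. At old age it was 4.15, 2.87, 4.91 and 3.59 in WT at 20, 22, 26 and 28 months, 5.21 and 4.93 in PrPmtA at 26 and 28 months, and 5.27 and 2.95 in PrPmtB at 20 and 22 months. Both 22-month arrays were the lowest, near the highest values of the other regions (2.82), and all 14 striatal arrays were above those regions. This probe set was among the dimmer ones (mean signal 3.15 over all 54 arrays).

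Neurod2 was 2.79 and 3.80 in young WT, 3.84 and 3.81 in young PrPmtA and 3.61 and 3.98 in young PrPmtB. In old WT it was 4.78, 2.67, 6.09 and 3.40 at 20, 22, 26 and 28 months, in old PrPmtA 6.24 at 26 and 4.43 at 28 months, and in old PrPmtB 4.88 at 20 and 3.40 at 22 months. The 26-month WT and PrPmtA arrays stood above the others. All 14 striatal arrays were below the lowest cerebellar array (6.70).

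Cux2 was 6.95 and 8.18 in young WT, 6.65 and 6.46 in young PrPmtA, and 6.65 and 6.50 in young PrPmtB. In old WT it was 7.58, 6.63, 8.73 and 8.02 at 20, 22, 26 and 28 months, in old PrPmtA 7.77 at 26 and 7.95 at 28 months, and in old PrPmtB 8.22 at 20 and 7.50 at 22 months. The old arrays of both transgenic lines were above their young arrays, and the WT groups overlapped. The 22-month WT array was as low as the young transgenic ones.

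The other 3 genes varied less. Mef2c lay between 10.16 and 11.67, with the 22-month PrPmtB array lowest and the 26-month WT array highest. Rorb lay between 6.17 and 7.27, with the 22-month WT array lowest and the 26-month WT array highest. Lmo3 lay between 7.73 and 8.64, and here the young male WT array, which was the highest of the 6 young arrays for Tbr1, Neurod6, Nrn1 and Fezf2, was the lowest of all 14. Across the 9 genes, the 26-month WT array was among the 3 highest arrays for 7 genes and above its group mean for all 9. The 22-month WT array was the lowest array for 6 genes and below its group mean for 8, with Lmo3 as the exception. How often these arrays were extreme over all probe sets was not counted, so these counts are not shown to be particular to the 9 genes.

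**Figure D2:**
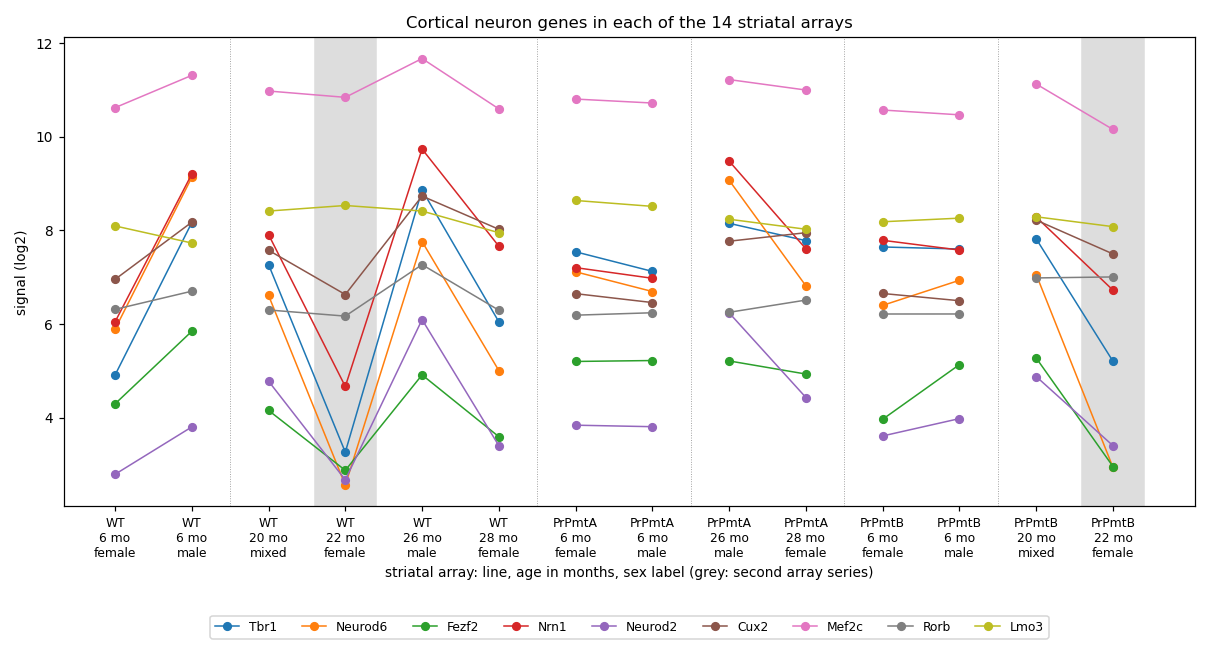
Log2 signal of the 9 genes in each of the 14 striatal arrays, with lines joining arrays of the same line and age and grey shading for the second array series. Tbr1, Neurod6 and Nrn1 move together, with low points in the 22-month WT array (3.26, 2.56 and 4.67). Their high points are in the young male WT, the 26-month WT and the 26-month PrPmtA arrays. Mef2c, Rorb and Lmo3 stay within 1.52 on the log2 scale.

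The spread among replicates was summarised as the SD within groups, pooled over the 6 groups of a region (8 degrees of freedom in striatum, 13 in brainstem/midbrain and 15 in cerebellum). In striatum it was 1.99 for Neurod6, 1.79 for Tbr1 and 1.63 for Nrn1, and only 9, 13 and 17 of the 45037 probe sets had a larger value. It was 1.13 for Neurod2 and 0.93 for Fezf2, with 73 and 174 probe sets above them. Cux2 followed with 0.65, Mef2c with 0.42, Rorb with 0.33 and Lmo3 with 0.20, against a median of 0.24 over the 22518 brighter probe sets.

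Nrn1, which was high in all arrays of the other regions, had a pooled SD of 0.20 in brainstem/midbrain and 0.25 in cerebellum, and the striatal value was 8.13 and 6.49 times as large. Tbr1, Fezf2 and Neurod6 lay near the lower end of the signal scale outside striatum, so the SDs there (0.16 and 0.12 for Tbr1, 0.07 and 0.04 for Fezf2, 0.64 and 0.26 for Neurod6) do not show how these genes vary where they are expressed. Lmo3 and Mef2c showed another order, with their largest SD in brainstem/midbrain (0.55 and 0.72). The SD was largest in striatum for 6 of the 9 genes, compared with 26.3% of the brighter probe sets, but for 6 of all 19 probe sets of these genes (31.6%), compared with 36.7% of all probe sets. These shares are descriptions, and no test was made of them. Without the 2 arrays of the second series the median of the 9 genes' SD in striatum was 0.68 in place of 0.93, and the SD was 1.41 for Neurod6, 1.26 for Tbr1 and 1.25 for Nrn1.

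**Figure D3:**
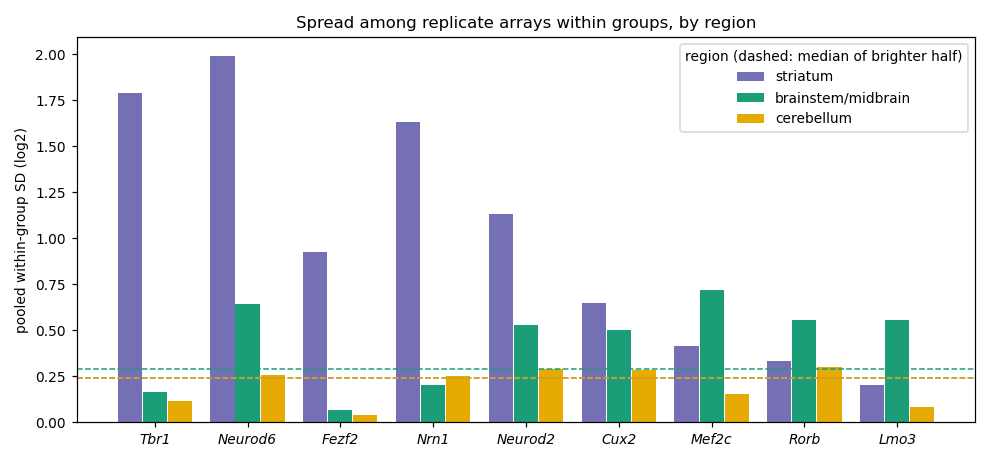
Pooled within-group SD of the log2 signal for each gene in the 3 regions (bars), with the median of the 22518 brighter probe sets in each region as a dashed line. Neurod6, Tbr1 and Nrn1 stand at 1.99, 1.79 and 1.63 in striatum, while Lmo3, Mef2c and Rorb have their highest bar in brainstem/midbrain.

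To test whether the genes varied together, values were centred on the mean of each group and correlated over the 14 striatal arrays, with an exact two-sided permutation of the arrays within their groups (768 arrangements, smallest possible p = 0.0013). Of the 36 pairs, 32 had a Pearson's r above 0 and the median r was 0.77. After Benjamini-Hochberg adjustment over the 36 pairs, 9 pairs passed 0.05 by Pearson's r, 9 by Spearman's rho and 8 by both. These 8 pairs were all among Tbr1, Neurod6, Nrn1, Neurod2 and Fezf2. The genes were chosen with earlier results of these data known, so the adjusted values describe this choice.

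The closest pairs were Tbr1 with Nrn1 (r = 0.95, exact permutation p = 0.0013, adjusted p = 0.0312, rho = 0.89, p = 0.0026, adjusted p = 0.0312) and Tbr1 with Neurod6 (r = 0.95, exact permutation p = 0.0026, adjusted p = 0.0312, rho = 0.93, p = 0.0052, adjusted p = 0.0312). Neurod6 correlated with Nrn1 (r = 0.93, rho = 0.91), with Fezf2 (r = 0.93, rho = 0.95) and with Neurod2 (r = 0.93, rho = 0.94), and all 3 pairs passed by both measures. Without the 2 arrays farthest from the median of the gene named here first, r was 0.88 for Tbr1 with Nrn1, 0.93 for Tbr1 with Neurod6, 0.89 for Neurod6 with Nrn1, 0.90 for Neurod6 with Fezf2 and 0.89 for Neurod6 with Neurod2. Tbr1 with Mef2c (rho = 0.88, exact permutation p = 0.0104, adjusted p = 0.0417) passed by rank only, where r = 0.79 (exact permutation p = 0.0716, adjusted p = 0.131).

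Lmo3 stood apart. Its correlation with the other genes lay between -0.41 (Cux2) and 0.27 (Mef2c), and with the mean of the other 8 genes r was -0.07, compared with 0.97 for Tbr1, 0.97 for Neurod6, 0.94 for Nrn1, 0.92 for Neurod2, 0.89 for Fezf2, 0.87 for Cux2, 0.84 for Mef2c and 0.67 for Rorb. The relations of Rorb rested on few arrays, since with Tbr1 r was 0.71 over all 14 arrays but 0.33 without the 2 farthest. The array series were also taken alone. Over the 6 young arrays of the first series 28 of 36 pairs had r above 0, and the 8 others were the pairs with Lmo3. There the mean of the 9 genes deviated from its group by up to 0.79 in WT, 0.08 in PrPmtA and 0.09 in PrPmtB. These r thus rested largely on the young WT pair. Over the 6 old arrays of the third series, with 1 PrPmtB array that centring sets to 0, all 36 pairs had r above 0. With Lmo3, r was -0.96 (Rorb) to -0.63 (Fezf2) in the first series and 0.06 (Cux2) to 0.89 (Neurod6) in the third. When each array was left out in turn, no pair passed the adjusted threshold in 9 of the 14 cases. The number of pairs with r above 0 was 28 to 35. No pair passed when either young WT array was left out, nor when either old PrPmtA or either old PrPmtB array was. Some pairs passed when a young PrPmtA or PrPmtB array was left out. All these omissions reduce the number of possible permutations equally. Leaving out the WT array of 20, 26 or 28 months, which reduces that number further, also left no pair past the threshold. Without the WT array of the second series, 4 pairs passed. The cause of these differences was not tested.

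**Figure D4:**
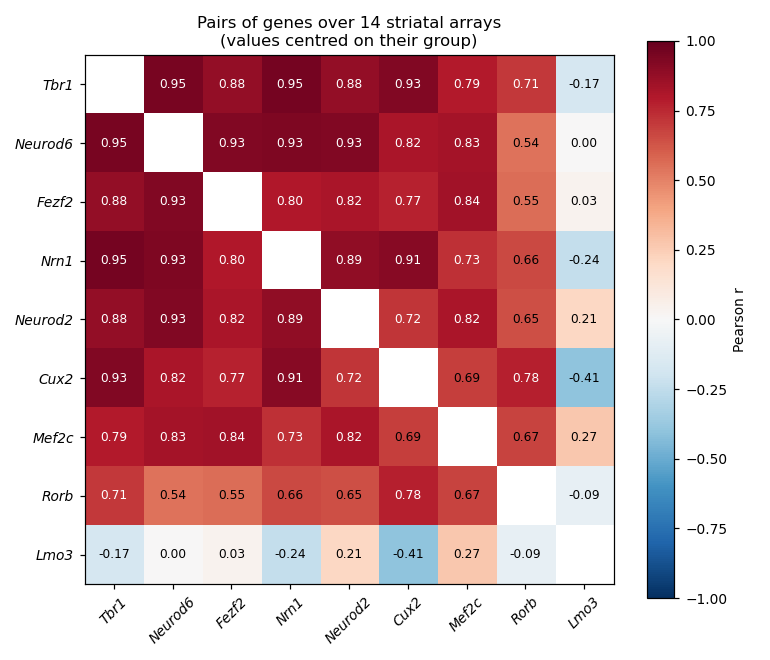
Pearson's r for each pair of the 9 genes over the 14 striatal arrays, after centring on the group means (red, positive; blue, negative). Tbr1, Neurod6, Fezf2, Nrn1 and Neurod2 form a block with r of at least 0.798, and Lmo3 is at most 0.27 with each gene.

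Other genes with the same pattern were looked for among 11544 genes in the brighter probe sets, as a description. The measure was Pearson's r with the mean of the 9 genes over the 14 centred striatal arrays. It was above 0.8 for 660 of these genes and below -0.8 for 333. The 10 most similar were Vxn (0.99), Slc17a7, the vesicular glutamate transporter of cortical neurons (0.98), Cabp1 (0.98), Cck, the neuropeptide cholecystokinin (0.98), Garnl3, Strbp, Prss12, Ttc7b, Nav3 and Satb1 (0.97 to 0.98). Slc17a7 was 3.38 and 3.89 in the 22-month WT and PrPmtB arrays and lay between 5.58 and 9.92 in the other 12 arrays. For all 10 genes the 26-month WT array was the highest and for 9 of them the 22-month WT array was the lowest. The mean used to pick these genes was itself highest and lowest in the same arrays. The shared extremes therefore follow largely from the choice and are no separate result. The 10 most opposite genes had r between -0.98 and -0.95, among them Htr2c, a serotonin receptor, and Calb1, the calcium-binding protein calbindin of striatal and other neurons, and they varied little, by 0.49 to 1.17 over the 14 arrays.

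Lists of genes of other cell types were set beside the 9 genes. The 16 measured genes of a further list of cortical projection neurons had a mean log2 signal of 5.79 in the 22-month WT array and 7.76 in the 26-month WT array, the lowest and the highest of the 14, and the list mean had r = 0.98 and rho = 0.96 with the mean of the 9 genes after centring. Of its 12 genes among the brighter probe sets, 7 had r above 0.8, including Nptx1 (0.97), Rprm (0.93) and Sox5 (0.92). Over all genes compared, 660 of 11544 did. In this list r was negative for Pou3f1 (-0.46), Tle4 (-0.39) and Cux1 (-0.24). Neurod1 of the cerebellar list (0.90) and Mbp of the myelin list (0.82) were also above 0.8, and Isl1 of the medium spiny neuron list was at -0.92. The mean of the medium spiny neuron list had r = -0.52. Its 3 lowest values were 10.28 in the young male WT, 10.31 in the 26-month WT and 10.34 in the 26-month PrPmtA array. These were the 3 arrays with the highest mean of the 9 genes (7.79, 8.16 and 7.96), and all 3 were labelled male. Both 22-month arrays, labelled female and with the lowest means of the 9 genes, were at 10.57 and 10.55. In young PrPmtA and PrPmtB the mean of the 9 genes was 6.86 and 6.96 in the male arrays, against 7.02 and 6.78 in the female ones. The part of sex in the spread of the 9 genes was not tested. The mean of 7 basal forebrain and pallidal genes had r = -0.775. It was highest in the 22-month PrPmtB array (4.21, against 2.96 to 3.60 in the other 13), which also had the largest beta-actin difference (2.22). This list was dim in striatum (median 3.32), and only 2 of its genes were among the brighter probe sets. For the hippocampal, thalamic, choroid plexus, myelin, cerebellar, brainstem and microglial or endothelial lists, r lay between -0.44 and 0.44. In the 26-month PrPmtA array the mean of the choroid plexus list was 8.12, against 4.63 to 5.68 in the other 13 arrays, and that of the hippocampal list was 4.35, against 2.94 to 3.73. The part of these tissues in the spread of the 9 genes was not tested.

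**Figure D5:**
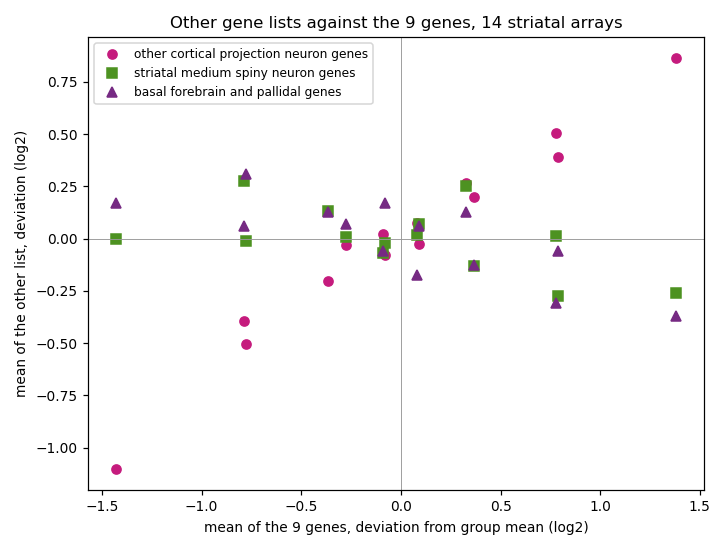
Mean deviation from the group mean (log2) of 3 other gene lists on the vertical axis against that of the 9 genes on the horizontal axis, for the 14 striatal arrays. The further cortical list rises with the 9 genes from the 22-month WT array at the lower left to the 26-month WT array at the upper right, whereas the medium spiny neuron genes and the basal forebrain and pallidal genes do not.

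The age comparison asked which genes changed between 6 months and old age in each line. In striatum the calls were few: 1 of 19 probe sets higher and 1 lower in WT, 2 higher in PrPmtA and 2 higher and 1 lower in PrPmtB. Over all probe sets 9.07% were called higher and 33.6% lower in WT, 7.07% higher in PrPmtA, and 8.95% higher and 29.9% lower in PrPmtB. Cux2 rose in PrPmtA, from 6.55 ± 0.13 to 7.86 ± 0.13 (SD, n = 2 each), by 1.31 on the log2 scale (SE 0.46, limma adjusted p = 0.061), and in PrPmtB from 6.58 ± 0.11 to 7.86 ± 0.51 (SD, n = 2 each), by 1.28 (SE 0.46, limma adjusted p = 0.0311). In WT the means were 7.56 ± 0.86 (SD, n = 2) and 7.74 ± 0.88 (SD, n = 4), a difference of 0.18 (SE 0.40, limma adjusted p = 0.775). This probe set is on the list of striatal age changes that the study drew from these same arrays, so its direction is not independent evidence. The difference of the age change from that in WT was 1.13 (SE 0.61) in PrPmtA and 1.11 (SE 0.61) in PrPmtB, and neither passed the test (limma adjusted p = 0.486 and 0.78). Without the 28-month PrPmtA array the difference in PrPmtA was 1.04 (SE 0.70).

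The Cux2 calls did not hold under every setting. The call in PrPmtA was lost when any one of its 4 striatal arrays was left out, including the 28-month array with Y-linked signal (1.22 without it). The call in PrPmtB was lost without either young array (1.36 and 1.21) and without the 20-month array (0.92). In both lines it was lost with the random block of shared array codes (limma adjusted p = 0.0626 and 0.0356), with a term for array series, with sex as a covariate, after quantile normalization, and in a fit of striatum alone (SE 0.61, limma adjusted p = 0.264 and 0.15). The other probe sets of Cux2 differed: the next brightest one was called higher in WT (0.51, SE 0.12, limma adjusted p = 0.00105) and in neither transgenic line, and the dimmest one was called higher in PrPmtB (0.82, SE 0.31, limma adjusted p = 0.0417).

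Neurod2 rose in PrPmtA striatum, from 3.82 ± 0.02 to 5.33 ± 1.28 (SD, n = 2 each), by 1.51 (SE 0.64, limma adjusted p = 0.1). The call was lost without either young array (1.53 and 1.50) and without the 26-month array (0.61), and was made without the 28-month array (2.42). It was also lost with the random block of shared array codes (1.45), a term for array series, the third series only, the separate calling method, quantile normalization, a fit of striatum alone and the mean of the gene's probe sets (0.53). The 26-month array is the one with the highest means of the choroid plexus and hippocampal lists, and their part in this difference was not tested. The dimmest Neurod2 probe set (mean signal 2.90) was called lower in WT (-0.19, SE 0.05) and in PrPmtB (-0.15, SE 0.06) striatum.

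For the genes with the widest spread, no age change was called in striatum, and the size and sign of the difference depended on single arrays. Neurod6 differed by -2.03 in WT (SE 0.88, limma adjusted p = 0.0654), by 1.04 in PrPmtA (SE 1.01, limma adjusted p = 0.54) and by -1.67 in PrPmtB (SE 1.01, limma adjusted p = 0.222). Leaving out single arrays gave -3.65 to -0.40 in WT, -0.09 to 2.17 in PrPmtA and -3.73 to 0.39 in PrPmtB. Tbr1 differed by -0.17 in WT (SE 0.73), 0.63 in PrPmtA (SE 0.84) and -1.11 in PrPmtB (SE 0.84), and Nrn1 by -0.13 (SE 0.68), 1.45 (SE 0.78) and -0.18 (SE 0.78). Without the 28-month array the PrPmtA differences were 0.82 for Tbr1, 2.17 for Neurod6 and 2.39 for Nrn1. In WT, 5 of the 9 genes turned sign when 1 array was left out, in PrPmtB 7 and in PrPmtA 2 (Fezf2 and Neurod6). Some of these differences were near 0, as for Rorb in WT (0.0013) and Lmo3 in PrPmtB (-0.04), where a small shift turns the sign. The share of all probe sets that turned sign was not counted. The fit shares one estimate of the spread over the regions, and in a fit of striatum alone the SE of Neurod6 in WT was 1.61 in place of 0.88 and that of Tbr1 1.45 in place of 0.73. Fezf2 in WT striatum differed by -1.19 (SE 0.37, limma adjusted p = 0.0101), was not called by the nested F method and was lower by the separate method, and in the fit of striatum alone its adjusted p was 0.239.

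Outside striatum, Lmo3 rose with age in WT brainstem/midbrain, from 3.91 ± 1.50 (SD, n = 2) to 5.52 ± 0.48 (SD, n = 6), by 1.61 (SE 0.28, limma adjusted p = 6.67e-05), and was the only one of the 19 probe sets called there, where 41.8% of all probe sets were called. The young arrays were 2.86 and 4.97, the old ones ran from 4.92 through a median of 5.57 to 6.07, and without the lower young array the difference was 0.55 and no longer called. The call was also lost in a fit of the region alone and with old arrays of the third series only (1.28). In cerebellum, Neurod2 rose with age in WT, from 7.04 ± 0.48 (SD, n = 2) to 8.22 ± 0.28 (SD, n = 6), by 1.18 (SE 0.52, limma adjusted p = 0.0643), where the adjusted p of the single comparison and the nested F call fell on different sides of 0.05. This call was lost in 11 of 17 alternatives, among them the random block of shared array codes (limma adjusted p = 0.0708), the separate calling method, the third series only (1.01), quantile normalization (1.02) and leaving out either young array (0.83 and 1.52). Its middle probe set rose by 1.97 (SE 0.36, limma adjusted p = 3.66e-05) in WT and by 1.66 (SE 0.37, limma adjusted p = 0.00214) in PrPmtA, and its dimmest probe set fell in both. These made 3 of 19 in WT and 2 of 19 in PrPmtA cerebellum, where 46.4% and 37.5% of all probe sets were called.

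The comparison of the lines asked whether the transgenes changed the genes. In striatum limma called 0 of 19 probe sets in all 4 comparisons with WT, at 6 months or old age, in which 0.595%, 0.451%, 0.255% and 0.484% of all probe sets were called (PrPmtA young, PrPmtB young, PrPmtA old, PrPmtB old). At an unadjusted p under 0.05 there were 1, 2, 3 and 0 of 19 probe sets, in the same order. Over all probe sets, 10.4%, 5.43%, 4.14% and 9.04% had such a p. The count of calls stayed at 0 in all 4 comparisons under every alternative run. Averaged over regions and ages, 0 of 19 were called for either line (0.266% and 0.233% of all probe sets). At an unadjusted p under 0.05 there were 2 and 1, against 16.3% and 14.2% of all probe sets. For the difference in the striatal age change between a line and WT the count was 0 for both lines (0.469% and 0.286% of all probe sets). There, 1 probe set had an unadjusted p under 0.05 in each line, against 11.6% and 7.12% of all probe sets.

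The 3 probe sets with an unadjusted p under 0.05 in old PrPmtA striatum were those of Neurod6, Fezf2 and Tbr1. Neurod6 was 7.94 ± 1.60 (SD, n = 2) there and 5.48 ± 2.26 (SD, n = 4) in old WT, a difference of 2.46 (SE 0.88, limma adjusted p = 0.644). Fezf2 differed by 1.19 (SE 0.37, limma adjusted p = 0.384) and Tbr1 by 1.61 (SE 0.73, limma adjusted p = 0.988). Without the 22-month WT array these 3 differences were 1.48, 0.85 and 0.57, and without the 28-month PrPmtA array they were 3.59, 1.33 and 1.79. Of the PrPmtA values of Neurod6, 6.82 lay within the WT range of 2.56 to 7.76 and 9.07, from the 26-month array with the highest hippocampal and choroid plexus means, lay above it. For Fezf2, leaving out the 26-month WT array gave 1.53 with limma adjusted p = 0.0468, and the nested F method still made no call. In PrPmtB, whose old group holds the other 22-month array, Neurod6 differed from WT by -0.49 (SE 0.88, limma adjusted p = 0.879) and Tbr1 by 0.15 (SE 0.73, limma adjusted p = 0.966). Mice of the 2 lines differed in age as well, with old striatal arrays of 26 and 28 months for PrPmtA and of 20 and 22 months for PrPmtB.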

How the data were processed

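The values are log2 signals of 45101 probe sets as deposited by the authors, normalized over all arrays. The methods of the study name RMA and the sample labels name GCRMA, so which of them was used is not settled here. Scanner files and signal over background were not used here. After removal of 64 control probe sets, 45037 remained for the tests. Probe sets were named from the platform annotation (34945 with 1 gene, 932 with several, 9160 with none). In R 4.3.3 with limma 3.58.1, a mean for each of 18 groups was fitted over 54 arrays (36 residual degrees of freedom), and calls were made with decideTests, method nestedF, at a Benjamini-Hochberg false discovery rate of 0.05 within each family of contrasts. An adjusted p belongs to the single contrast, so it can fall on the other side of 0.05 from the call. The 9 genes, the lists and the tests were chosen with earlier results of these data known. All 9 genes are named by their brightest probe set, with the 10 genes most and least like their mean. No replicate numbers are given in the labels. Alternatives were another set of probe sets, fit, calling method, series, sex, quantile normalization, a random block of shared array codes, the mean of a gene's probe sets and leaving out each array.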

Additional observations from a re-analysis of the deposited data

Results flagged for a closer look

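All 54 combinations of a gene and a group of 4 to 10 arrays were examined for a single array far from the others. Chance alone sets off about 1 in 20 such combinations, and 3 of the 54 were flagged. Rorb in old WT striatum was 7.27 in the 26-month array and 6.17 to 6.30 in the other 3, a gap of 0.881 of the group's range. Neurod2 in old PrPmtB cerebellum was 7.83 in a 20-month array and 8.36 to 8.38 in the other 3, a gap of 0.951 of the range. Tbr1 in old PrPmtA cerebellum was 3.12 in a 21-month array and 3.38 to 3.47 in the other 4, a gap of 0.753 of the range.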

How the results depend on the processing

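The striatal age counts were small and moved with the setting. In WT (2 calls) the count was 1 with the brighter probe sets alone, with a fit of each region alone and with old arrays of the third series only, and 0 after quantile normalization. In PrPmtA (2 calls) it was 0 with a fit of each region alone, the separate calling method, a term for array series, quantile normalization and the random block of shared array codes, and 1 with the third series only. In PrPmtB (3 calls) it was 0 with a fit of each region alone and after quantile normalization, and 1 with the third series only and with the random block. The median SD of the 9 genes in striatum was 0.684 without the second series. Leaving out single arrays gave 15 to 17 region calls in both comparisons, 0 to 3 age calls in WT, 0 to 1 in PrPmtA and 0 to 3 in PrPmtB, 0 line calls in striatum, 0 to 2 on average over regions and 0 for the difference in age change, a median SD of 0.771 to 0.989, 0 to 11 pairs past the threshold and 28 to 35 pairs above 0.

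Several age differences in striatum changed sign. With old arrays of the third series only, which leaves out the 22-month arrays, Tbr1 was 0.86 in WT and 0.19 in PrPmtB, Nrn1 was 0.81 and 0.60, and Neurod6 was 0.39 in PrPmtB. Leaving out single arrays gave -1.80 to 1.46 for Tbr1, -1.71 to 1.45 for Nrn1 and -0.43 to 0.79 for Cux2 in WT, the latter -0.15 without the 26-month array. It gave -0.0904 (without the 26-month array) to 2.17 for Neurod6 in PrPmtA, and in PrPmtB -2.42 to 0.19 for Tbr1, -3.73 to 0.39 for Neurod6, -0.96 to 0.60 for Nrn1 and -0.39 to 1.08 for Neurod2. The cause was not tested. Arrays could not be paired by replicate number, which the labels do not give. Arrays with a shared code were fitted as a random block (correlation 0.136), with the counts given above. Groups of 2 arrays limit the precision of every striatal comparison.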
